A study of Mus musculus with 4 samples.

Results

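The genes described here make cholesterol and fatty acids, and they were read in sorted basal cells of embryonic mouse epidermis with and without Ezh2. They were chosen by name as 32 genes of both pathways, with every probe set annotated to a single one of their symbols. Probe sets are the short groups of oligonucleotides by which an Affymetrix array reads a transcript. Of the 32 genes, 31 had such a probe set (71 probe sets in all), out of 18193 genes and 45037 non-control probe sets in the whole series. Acat2, the thiolase that starts the sterol branch, had none under a single symbol and is not analysed here. The measured genes comprised 17 enzymes of cholesterol synthesis, 9 enzymes of fatty acid synthesis, desaturation and elongation, and 5 regulators or carriers of sterols. All 31 had at least 1 probe set above the signal filter (a mean signal of at least 73.2), and 62 of the 71 probe sets lay above it.

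Cells build cholesterol from acetyl-CoA through mevalonate, isoprenoids, squalene and lanosterol. Fatty acids are built from the same acetyl-CoA by carboxylation, chain extension, desaturation and further elongation. Both branches are switched on by SREBP transcription factors, which Scap escorts out of the endoplasmic reticulum when sterols are low and which Insig proteins hold back when sterols are high. In epidermis these lipids serve growing progenitors and, later, the water barrier that cells assemble as they leave the basal layer.

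The study compared wild-type mice (WT) with mice carrying a conditional knockout of Ezh2 (Ezh2cKO), both of mixed C57 and CD1 strain and both at embryonic day 16. Basal cells were purified from skin by flow cytometry, and each genotype was measured on 2 arrays, numbered replicate 1 and 2. Ezh2 is the methyltransferase of Polycomb repressive complex 2, and comparing the genotypes addresses which transcripts shift when that silencing is lost from basal epidermal cells. The Cre driver, the deleted exons, the sort markers, and whether the replicates came from separate animals are not given in the sources used here, so a p-value here covers the array-to-array spread alone, and that spread may be technical. The number of arrays limits the precision.

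Ezh2 itself was read at 3336 and 3603 in WT and at 661 and 1308 in Ezh2cKO (log2 difference -1.88, SE 0.34), so both knockout arrays carried less of the targeted transcript. The median signal of all non-control probe sets was 87.4 to 91.6 on the replicate 1 arrays and 137 to 148 on the replicate 2 arrays, although the authors' scaling gave all 4 the same trimmed mean. Xist, the transcript of the inactive X chromosome, stood at 86.9 on Ezh2cKO replicate 1 and between 8669 and 11333 on the other 3 arrays, so that array stands apart. All 10 basal markers were measured, and their signals summed to 97874 and 85998 in WT and to 90318 and 88537 in Ezh2cKO (replicate 1, then replicate 2, here and below). These sums are mostly keratin signal. Of the 10, Krt14 was higher on both knockout arrays, and the hemidesmosome genes Itga6 (11908 and 10639 in WT, 6327 and 9411 in Ezh2cKO) and Dst were lower on both. Genes of other skin cells were also read: 8 of 8 spinous markers summed to 59907 and 48487 in WT and 62290.0 and 53573 in Ezh2cKO, and 9 of 9 dermal fibroblast markers to 51131 and 58610.0 in WT and 48533 and 61427 in Ezh2cKO. Markers of immune cells (5 of 7 measured) summed to 772 to 1049.5 in WT and 851 to 863 in Ezh2cKO, and those of melanocytes (4 of 7) to 1161 to 1993 in WT and 1157 to 1517 in Ezh2cKO. In a sorted population read in bulk, fewer cells of a type and less RNA per cell cannot be told apart.

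Sterol enzymes had slightly more signal in Ezh2cKO than in WT, and fatty acid enzymes less so. By its brightest probe set, 16 of the 17 sterol enzymes had a mean log2 difference above 0 (Ezh2cKO minus WT, on log2(signal + 16), a scale that understates changes of dim genes). The median over the 17 was 0.28, beside -0.0035 over all 12703 genes measured, and it was 0.31 within replicate 1 and 0.14 within replicate 2. For the 9 fatty acid enzymes the median was 0.11, with 0.16 and 0.05 within the replicate numbers. The 2 branch medians therefore lay 0.17 apart, 0.15 within replicate 1 and 0.09 within replicate 2.

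No single gene of either pathway passed limma's test. At an adjusted p under 0.05 the count was 0 of 31 (0% of all 27022 probe sets), and at an unadjusted p under 0.05 it was also 0 of 31, where 0.606% of all genes and 0.407% of all probe sets reached that level. With the replicate number as a block in the fit, none of the 31 passed the adjusted threshold, and 7 (Pmvk, Idi1, Fdft1, Sqle, Cyp51, Msmo1 and Scd1) had an unadjusted p under 0.05, as did 5.01% of all probe sets. The lowest unadjusted limma p was 0.0693, for Msmo1, and the adjusted p of every one of the 31 was 0.999979. With 2 arrays against 2, an exact permutation test could not go below 0.333. The differences below are thus measured values. Their SEs and 95% confidence intervals come from the fit without a block, and in that fit all the intervals include 0.

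A measure that uses no variance asks whether both Ezh2cKO arrays lay beyond both WT arrays. Of the 17 sterol enzymes 8 lay higher in this way (47.1%) and 0 lower, where 8.52% of all genes lay higher and 8.39% lower. These 8 were Pmvk, Mvd, Idi1, Sqle, Lss, Cyp51, Msmo1 and Sc5d. Of the 9 fatty acid enzymes 1 lay higher, Elovl6, and 0 lower. Of the 5 regulators none did in either direction. Among genes of the brighter 40% of probe sets, where all 31 genes of both pathways fall, 7.99% lay higher.

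That count depends on how the arrays are scaled against each other. Quantile normalization gave 11 of the 31, 8 of them sterol enzymes, beside 8.44% of all genes. With the arrays scaled to a common median only Pmvk of the 31 kept both Ezh2cKO arrays above both WT arrays, and the share of all genes was then 3.29%. The sterol median hardly moved under that scaling (0.26), but it was 0.38 within replicate 1 and 0.03 within replicate 2, and the fatty acid median within replicate 2 was -0.06. With 1 array left out the condition is easier to meet. Leaving out WT replicate 1 gave 18 of the 31 beside 24.9% of all genes, and leaving out WT replicate 2 gave 13 beside 25.3%. Leaving out Ezh2cKO replicate 1 gave 13 beside 29.6%, and leaving out Ezh2cKO replicate 2 gave 23 beside 36.7%.

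**Figure D1:**
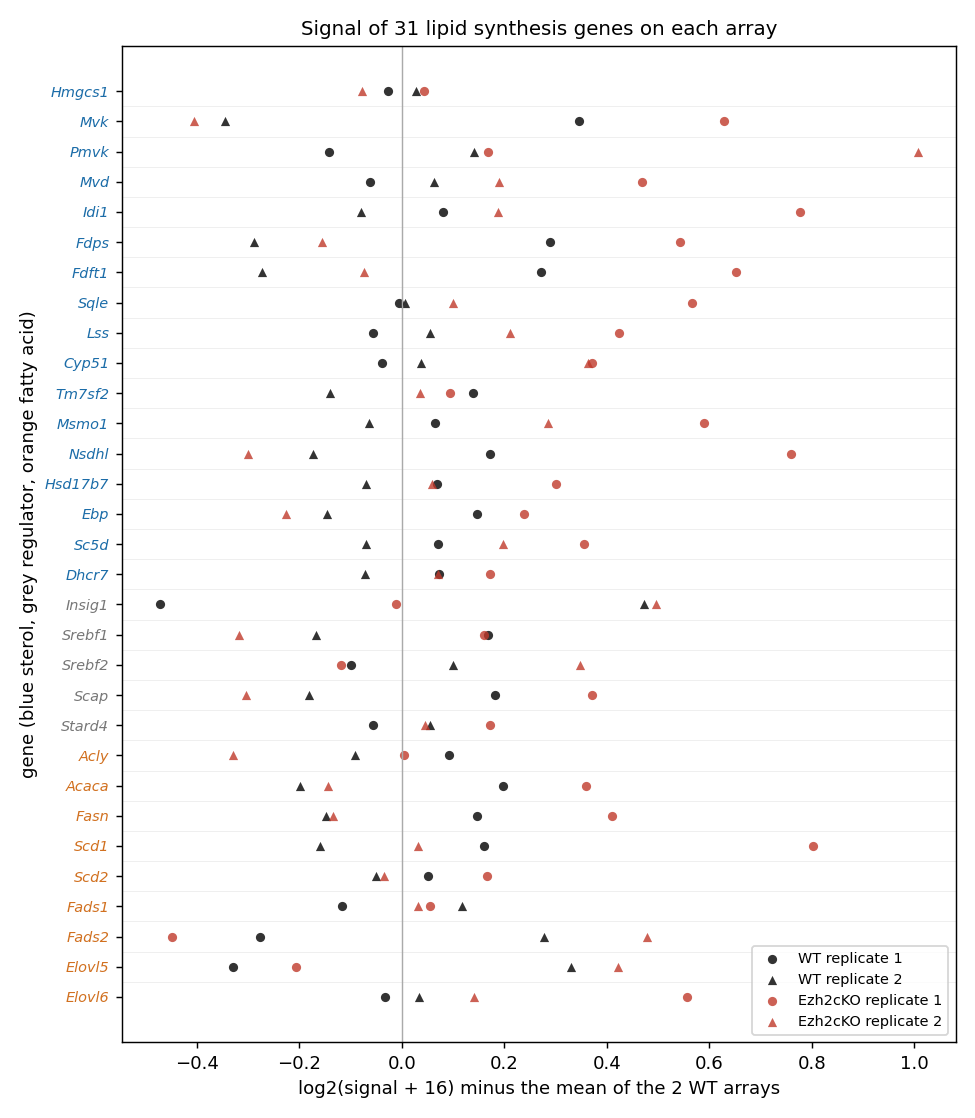
Signal of each of the 31 genes on each array, as log2(signal + 16) minus the mean of both WT arrays for that gene, with circles for replicate 1, triangles for replicate 2, black for WT and red for Ezh2cKO. For Cyp51, Msmo1, Idi1, Sc5d and the other 5 separated genes both red symbols lie to the right of both black ones, while for Mvk, Fdps, Fads2 and Elovl5 the replicate numbers lie further apart than the genotypes.

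The promoters of the sterol enzymes share short runs of letters, and 5 are shown to set those letters beside the genotype differences. Pmvk and Sc5d are the genes with the largest and the smallest separated difference, while Msmo1, Idi1 and Hmgcs1 were chosen after their values were seen. The table of RefSeq start sites (build GRCm38.p6) held 14 of the 17 measured sterol enzymes, with no entry for Fdps, Fdft1 and Sqle. The stretches run from 250 bases before the start up to the start, 5′ to 3′ on the strand of the gene. Capitals mark CCAAT or its reverse complement ATTGG, the box bound by NF-Y, a partner of SREBP at sterol gene promoters. In Hmgcs1 the run of 9 capitals beginning with T marks TCACNCCAC, the form of the sterol regulatory element searched here. Pmvk lies on the plus strand at chr3:89454291-89454540 (the first of its 2 entries), Sc5d on the minus strand at chr9:42264301-42264550, Msmo1 on the minus strand at chr8:64733579-64733828, Idi1 on the plus strand at chr13:8885356-8885605 and Hmgcs1 on the plus strand at chr13:119690101-119690350.
Pmvk: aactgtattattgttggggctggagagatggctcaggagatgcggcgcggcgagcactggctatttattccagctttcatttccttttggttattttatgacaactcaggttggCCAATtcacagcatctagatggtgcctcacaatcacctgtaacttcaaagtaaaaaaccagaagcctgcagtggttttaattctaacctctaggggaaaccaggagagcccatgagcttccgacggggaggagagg
Sc5d: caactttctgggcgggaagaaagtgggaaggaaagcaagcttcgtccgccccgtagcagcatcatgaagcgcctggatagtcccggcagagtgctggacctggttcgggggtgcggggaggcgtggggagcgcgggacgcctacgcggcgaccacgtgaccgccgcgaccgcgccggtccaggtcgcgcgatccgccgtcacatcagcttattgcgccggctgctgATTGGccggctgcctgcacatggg
Msmo1: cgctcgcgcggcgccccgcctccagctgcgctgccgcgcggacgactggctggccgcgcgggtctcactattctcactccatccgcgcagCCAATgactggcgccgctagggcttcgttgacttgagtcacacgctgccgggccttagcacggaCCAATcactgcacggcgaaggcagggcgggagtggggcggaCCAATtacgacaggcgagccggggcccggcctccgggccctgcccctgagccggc
Idi1: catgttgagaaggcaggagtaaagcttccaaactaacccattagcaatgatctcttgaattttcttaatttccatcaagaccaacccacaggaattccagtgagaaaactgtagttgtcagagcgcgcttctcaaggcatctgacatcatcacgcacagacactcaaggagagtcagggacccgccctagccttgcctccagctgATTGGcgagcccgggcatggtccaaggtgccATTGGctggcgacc
Hmgcs1: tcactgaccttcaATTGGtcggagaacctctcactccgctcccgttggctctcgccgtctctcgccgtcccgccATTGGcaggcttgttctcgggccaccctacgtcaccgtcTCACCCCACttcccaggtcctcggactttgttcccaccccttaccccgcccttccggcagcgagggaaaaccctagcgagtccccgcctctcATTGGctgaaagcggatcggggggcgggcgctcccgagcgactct

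CCAAT was found on either strand in all 14 of these sterol enzyme promoters, counting a gene with several entries once if any held it. It was found in 37.5% of all genes of the table counted the same way, and in 33.8% of its single entries. It was also in 3 of 4 regulators with an entry (not in Scap; Stard4 has none) and in 2 of 6 fatty acid enzymes, Fasn and Elovl5, but not in Acly, Acaca, Fads2 or Elovl6 (Scd1, Scd2 and Fads1 have none). The GC box GGGCGG, whose first letters can overlap the end of ATTGG, was in 13 of 14 sterol enzymes, 4 of 4 regulators and 2 of 6 fatty acid enzymes, beside 35.4% of all genes. TCACNCCAC was in Hmgcs1 alone of the 24 genes, beside 1.22% of all genes. The E-box CACGTG was in 3 of 14 sterol enzymes, 2 of 4 regulators and 1 of 6 fatty acid enzymes, beside 6.86% of all genes. A match is a description of these letters in this window. Hmgcs1, with 3 CCAAT boxes and the sterol element, had one of the smallest genotype differences of the branch by its brightest probe set. Msmo1, also with 3 CCAAT boxes, was at 0.44, and Pmvk, with 1 in its first entry, had the largest difference. Whether the boxes and the differences are related was not tested.

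In the early, mevalonate part of the branch the genes did not behave alike. Hmgcs1, the synthase that makes HMG-CoA, had signals of 7071 and 7347 in WT and 7431 and 6825 in Ezh2cKO (log2 difference -0.02, SE 0.13), with log2 differences of 0.07 within replicate 1 and -0.11 within replicate 2. The genotypes overlapped, and this was the only sterol enzyme with a mean difference below 0. It was read by a probe set of a design type that can pick up related sequences, and its other 4 kept probe sets gave log2 differences from 0.07 to 0.22. Mvk, mevalonate kinase, had 785 and 480.3 in WT and 959 and 460.4 in Ezh2cKO, so the replicate 1 arrays were high and the replicate 2 arrays low in both genotypes.

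Pmvk, the next kinase, had 418 and 512 in WT and 522 and 946 in Ezh2cKO. Both knockout arrays were higher, the second by far. Its log2 difference of 0.59 (SE 0.34, 95% confidence interval -0.26 to 1.43) was the largest of the 31. The fold, taken here and below on signal + 16, was 1.24 within replicate 1 and 1.82 within replicate 2, and Pmvk was the only separated gene whose difference was larger within replicate 2. Only 1 probe set reads Pmvk.

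Mvd, the decarboxylase that yields isopentenyl diphosphate, had 284 and 311 in WT and 418 and 341 in Ezh2cKO (log2 difference 0.33, SE 0.25). Both knockout arrays were higher, by 1.45-fold and 1.09-fold within the replicate numbers, and its second probe set gave 0.27. Idi1, the isomerase of that product, had 2048 and 1831 in WT and 3328 and 2207 in Ezh2cKO. Its log2 difference was 0.48 (SE 0.24, 95% confidence interval -0.12 to 1.09), 1.62-fold within replicate 1 and 1.20-fold within replicate 2. Its second probe set, at 0.32, was separated in the same direction.

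Fdps, which joins isoprene units into farnesyl diphosphate, had 2697 and 1802 in WT and 3219 and 1978 in Ezh2cKO. Fdft1, which joins farnesyl units into squalene, had 1549 and 1057 in WT and 2019.7 and 1216 in Ezh2cKO. Both were higher in Ezh2cKO within each replicate number (log2 0.25 and 0.13 for Fdps, 0.38 and 0.20 for Fdft1). In both, however, the replicate 1 arrays exceeded the replicate 2 arrays by more than the genotypes differed, so the groups overlapped.

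Sqle, the epoxidase that commits squalene to sterols, had nearly equal WT signals of 2134 and 2151, and 3182 and 2298 in Ezh2cKO (log2 difference 0.33, SE 0.21). The knockout excess was 1.49-fold within replicate 1 and 1.07-fold within replicate 2. Lss, the cyclase that makes lanosterol, had 464 and 502 in WT and 653 and 561 in Ezh2cKO (log2 difference 0.32, SE 0.22), with folds of 1.39 and 1.11. Its dimmer kept probe set gave 0.25, with folds in opposite directions within the replicate numbers (log2 0.63 and -0.13). The brightest probe sets of Lss and of Mvd are of a design type that can match several transcripts.

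Cyp51 and Msmo1, which act after lanosterol is made, were higher on both knockout arrays. Cyp51, the lanosterol demethylase, had 789 and 833 in WT and 1053 and 1048 in Ezh2cKO. Its log2 difference was 0.37 (SE 0.19, 95% confidence interval -0.10 to 0.83), with folds of 1.33 and 1.25, and its second kept probe set, at 0.19, was separated in the same direction. Msmo1, a methyl oxidase that acts later, had 1428 and 1304 in WT and 2060.4 and 1666 in Ezh2cKO. Its log2 difference was 0.44 (SE 0.19, 95% confidence interval -0.05 to 0.92), with folds of 1.44 and 1.27. The second Msmo1 probe set was dim and uneven, at 26.7 and 65.7 in WT and 24.7 and 186 in Ezh2cKO.

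Nsdhl, the dehydrogenase that works with Msmo1, had 1192 and 935 in WT and 1799 and 854 in Ezh2cKO. Its log2 difference was 0.59 within replicate 1 and -0.13 within replicate 2, so only the first knockout array stood high. Ebp, the isomerase that shifts the sterol ring double bond, had 1487 and 1211 in WT and 1587 and 1146 in Ezh2cKO, with overlapping groups. Nsdhl and Ebp are the members annotated to the X chromosome, and the array on which both were highest, Ezh2cKO replicate 1, is also the one with low Xist. The part of that in these values was not tested.

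Of the remaining late enzymes, Sc5d, which places the last ring double bond, was the evenest. It had 569 and 515 in WT and 697 and 624 in Ezh2cKO (log2 difference 0.28, SE 0.21), with folds of 1.22 and 1.20 within the replicate numbers. Its 3 kept probe sets gave 0.09 to 0.36, and a second of them, at 0.36, was also separated. Hsd17b7, a ketone reductase of the late steps, gave log2 differences of 0.23 within replicate 1 and 0.13 within replicate 2. Dhcr7, which completes cholesterol, gave 0.10 and 0.14, and Tm7sf2, another sterol reductase, -0.05 and 0.18.

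**Figure D2:**
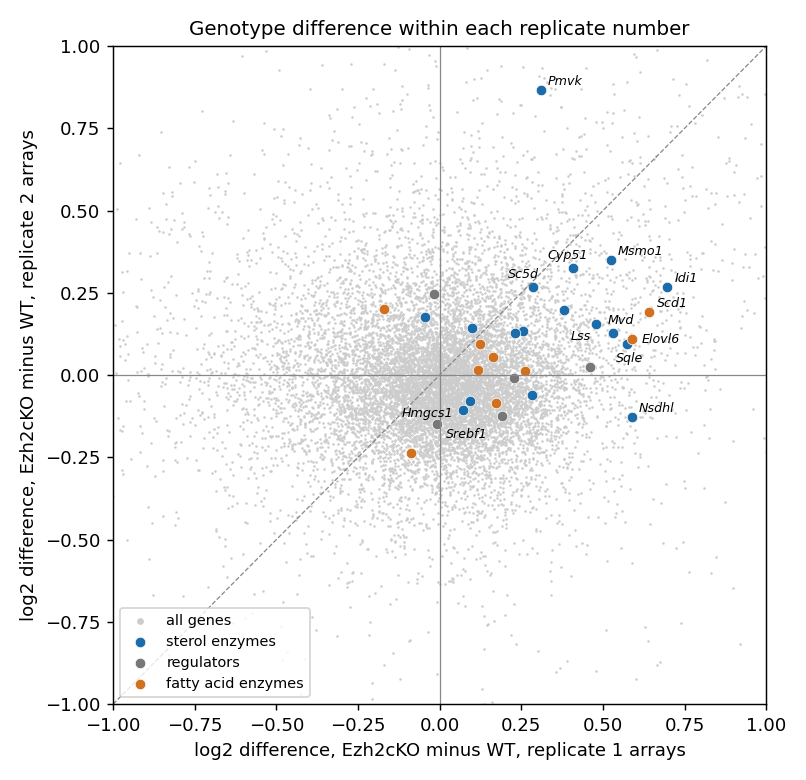
Log2 difference between Ezh2cKO and WT on the replicate 1 arrays (x) against that on the replicate 2 arrays (y), for the 31 genes by branch and all 12703 genes in grey, axes limited to values within 1. Of the 17 sterol enzymes 12 lie above 0 on both axes and none below 0 on both, and most lie below the dashed line of equal differences.

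Within each replicate number 12 of 17 sterol enzymes were higher in Ezh2cKO in both comparisons and 0 lower in both, where 25.2% of all genes were higher in both and 25.6% lower in both. The fatty acid enzymes had a like share, with 6 of 9 higher in both (66.7%, against 70.6% of the sterol enzymes) and 1 lower in both. The difference was larger within replicate 1 than within replicate 2 for 14 of the 17, beside 53.7% of all genes. For 5 of the 17 (Mvd, Lss, Cyp51, Msmo1 and Sc5d) the genotype difference was larger than the difference between arrays of one genotype in both genotypes, where this held for 9.95% of all genes. It held for 0 of the 9 fatty acid enzymes and 0 of the 5 regulators.

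The size of the sterol shift depended on which arrays were kept. Without Ezh2cKO replicate 1 the sterol median was 0.07, without WT replicate 2 it was 0.11, and without Ezh2cKO replicate 2 it was 0.42. The fatty acid median was 0.03 with the first of the Ezh2cKO arrays dropped and 0.17 with the second dropped. The sterol median exceeded the fatty acid median by 0.04 when Ezh2cKO replicate 1 was dropped and by 0.26 when Ezh2cKO replicate 2 was. With WT replicate 2 dropped the difference turned to -0.049. The order of the branches thus changed with the arrays kept, although leaving out 1 array unbalances the replicate numbers between the genotypes. Within each number the sterol median was the higher, by 0.15 and 0.09.

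Ezh2cKO replicate 1 also differed in its other transcripts. The 11 measured of 12 granular and cornified layer markers, genes of the outer epidermis, summed to 3451 and 4921 in WT and 13274 and 7393 in Ezh2cKO. The rise was not confined to that array. Of the 11, 9 were higher on both knockout arrays, beside 8.52% of all genes. All 11 were higher in Ezh2cKO within both replicate numbers, beside 25.2% of all genes. The 8 of 8 endothelial markers summed to 8746 and 10037 in WT and 4617 and 10703 in Ezh2cKO. Adipocyte markers, of which 4 of 10 were measured, summed to 10285 and 6235 in WT and 2707 and 6568 in Ezh2cKO. Most of that is Fabp4, at 8883 and 5837 in WT and 2515 and 6242 in Ezh2cKO. Adipoq had 1056 and 120 in WT and 33.8 and 78.5 in Ezh2cKO, so WT replicate 1 was its uneven array. Retn was highest on WT replicate 2, at 210. Sebocyte markers, of which 4 of 9 were measured, summed to 20306 and 17327 in WT and 21007 and 18094 in Ezh2cKO. Nearly all of that is Fabp5, at 19256 and 16600 in WT and 19954 and 17396 in Ezh2cKO, which the epidermis also expresses. Of the other 3, Pparg, the regulator of lipid-storing cells, had 169 and 67.4 in WT and 52.9 and 72.7 in Ezh2cKO, and Mc5r and Plin2 also had overlapping groups. No marker was listed at 0, and whether dim ones were above background is not known. The part of these cells in the lipid gene values was not tested.

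The fatty acid branch starts with Acly, which makes cytosolic acetyl-CoA from citrate. It had 5291 and 4656 in WT and 4979.8 and 3948 in Ezh2cKO (log2 difference -0.16, SE 0.18), the lowest mean difference of the 31. It was -0.09 within replicate 1 and -0.24 within replicate 2. The groups overlapped, the probe set is of the type that can pick up related sequences, and the other 3 kept ones gave 0.03 to 0.10. Acaca, the carboxylase that commits acetyl-CoA to fatty acids, had 1053 and 796 in WT and 1180.1 and 828 in Ezh2cKO, with log2 differences of 0.16 within replicate 1 and 0.05 within replicate 2. Fasn, the fatty acid synthase, had 2445 and 1990.2 in WT and 2935 and 2008 in Ezh2cKO (log2 difference 0.14, SE 0.24), 1.20-fold within replicate 1 and 1.01-fold within replicate 2. In Acaca and Fasn the replicate 2 arrays of both genotypes lay below both replicate 1 arrays.

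Among the desaturases, Scd1, which puts the first double bond into saturated chains, had 652 and 519 in WT and 1026 and 595 in Ezh2cKO. Its log2 difference of 0.42 (SE 0.32, 95% confidence interval -0.39 to 1.22) was the largest of the fatty acid branch, with folds of 1.56 and 1.14, but Ezh2cKO replicate 2 lay below WT replicate 1. Scd2, its close paralog, had 10394 and 9693 in WT and 11266 and 9793 in Ezh2cKO (log2 difference 0.07, SE 0.14), with 0.12 and 0.01 within the numbers and overlapping groups. Another probe set of Scd2 went its own way, at 1364 and 401 in WT and 336 and 655 in Ezh2cKO, a log2 difference of -1.97 within replicate 1 and 0.69 within replicate 2. Fads1 and Fads2, the desaturases of long polyunsaturated chains, had overlapping groups and mean log2 differences of 0.04 and 0.02.

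Both elongases of the branch were higher in Ezh2cKO within each number. Elovl6, which extends saturated chains, had 746 and 782 in WT and 1131 and 844 in Ezh2cKO (log2 difference 0.35, SE 0.23), 1.51-fold within replicate 1 and 1.08-fold within replicate 2. Both knockout arrays were higher, and the same held for its second kept probe set, at 0.21. Elovl5, which extends polyunsaturated chains, had 1804 and 2858 in WT and 1965 and 3049 in Ezh2cKO, so the replicate number set the level more than the genotype did.

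By their brightest probe sets the regulators showed little difference by genotype. Srebf1, which encodes the SREBP of fatty acid genes, had 2314 and 1829.5 in WT and 2302 and 1649 in Ezh2cKO. Its mean log2 difference was -0.08 with an SE of 0.24, and it was -0.01 within replicate 1 and -0.15 within replicate 2. Srebf2, which encodes the SREBP of sterol genes, had 1180.2 and 1358 in WT and 1165 and 1615 in Ezh2cKO (log2 difference 0.11, SE 0.23), with -0.02 and 0.25 within the numbers. The second Srebf2 probe set, nearly as bright, gave 0.28, with 0.22 and 0.34 within the numbers. In both genes the groups overlapped. Insig1, the sterol-sensing retention protein and itself an SREBP target, had 479.7 and 938 in WT and 667 and 953 in Ezh2cKO. It was 1.38-fold higher in Ezh2cKO within replicate 1 and 1.02-fold within replicate 2, and within WT alone its arrays differed by log2 0.94.

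Scap, the SREBP escort, had 2233 and 1733 in WT and 2549.7 and 1589.7 in Ezh2cKO, with opposite directions within the numbers. Stard4, a carrier of cholesterol between membranes, had 1343 and 1452 in WT and 1574 and 1441 in Ezh2cKO by its brightest probe set. Its other 2 kept probe sets, at 0.34 and 0.24, had both knockout arrays above both WT arrays. The median over the 5 was 0.11, with 0.19 and -0.01 within the numbers. With the mean of probe sets it was 0.20. Dropping Ezh2cKO replicate 1 gave 0.045, dropping WT replicate 1 gave 0.053, and dropping either of the replicate 2 arrays gave 0.16.

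**Figure D3:**
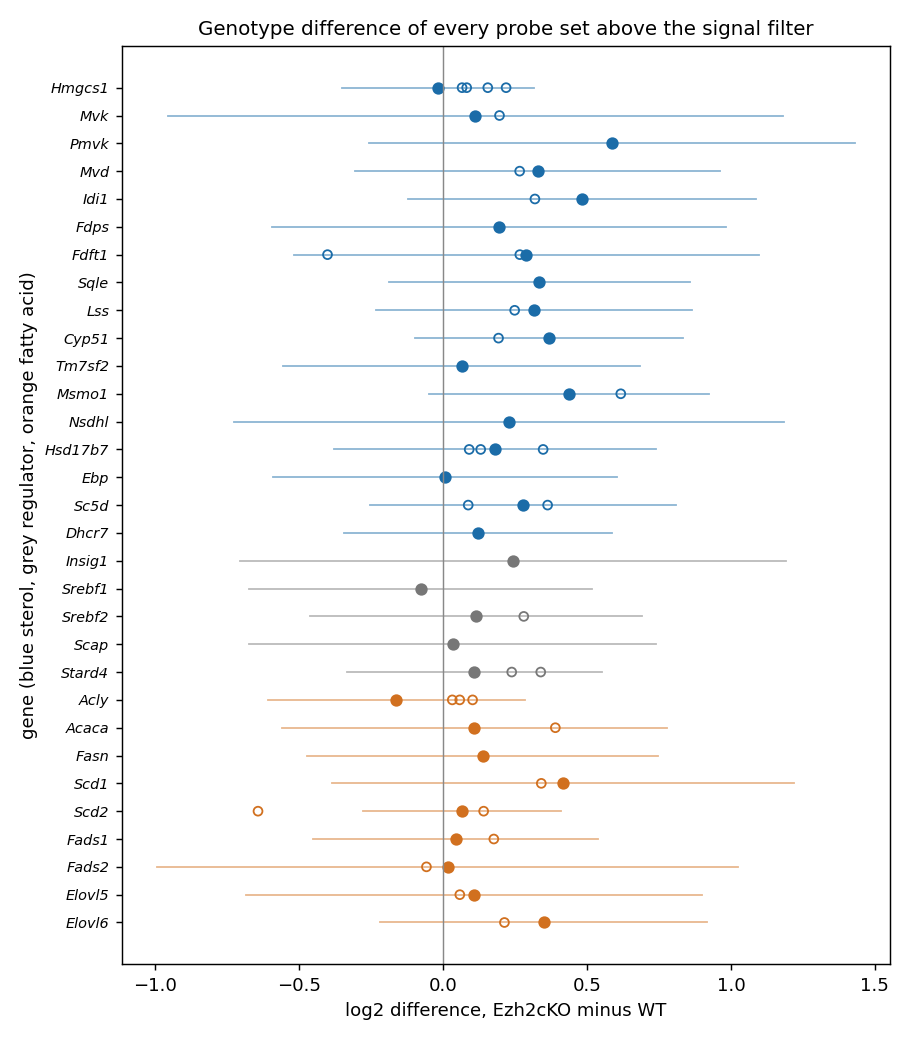
Log2 difference between Ezh2cKO and WT of each of the 62 probe sets above the signal filter, by gene. The brightest probe set is filled, with its 95% confidence interval from limma without a block as a line. Of the 34 sterol probe sets 32 lie above 0, and all intervals of the brightest probe sets cross 0.

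Over all kept probe sets the branches kept their order. Of 34 probe sets of sterol enzymes 12 had both Ezh2cKO arrays above both WT arrays and 1, a dim one of Fdft1, had both below, where 7.22% and 7.21% of all kept probe sets did. Of 20 probe sets of fatty acid enzymes 2 lay higher, both of Elovl6, and 0 lower. The medians over these probe sets were 0.22 and 0.11. Of the 20 genes with several kept probe sets, 5 (Hmgcs1, Fdft1, Acly, Scd2 and Fads2) had probe sets with mean differences of opposite sign.

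The level of many of these genes followed the replicate number within each genotype. In 11 of the 17 sterol enzymes and 5 of the 9 fatty acid enzymes the replicate 2 array was lower than the replicate 1 array in WT and in Ezh2cKO alike, where this held for 42.5% of all genes. Mvk lay lower on replicate 2 by log2 differences of -0.69 in WT and -1.03 in Ezh2cKO. Fads2 and Elovl5 lay higher, by 0.55 and 0.66 in WT and 0.93 and 0.63 in Ezh2cKO. In these 3 genes the arrays of one genotype differed by more than the genotypes did.

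Other genes of the sterol pathway control, take up, move or export sterols, or belong to the same or neighbouring steps. As a set they did not share the direction of the enzymes. Of 19 such genes 12 were measured, and none passed limma's adjusted threshold or reached an unadjusted p under 0.05. Their median log2 difference was -0.12, with 3 above 0 and 9 below. Lbr, a sterol reductase like Tm7sf2, had 5775 and 4988 in WT and 5195 and 4863 in Ezh2cKO (log2 difference -0.09, SE 0.15), with overlapping groups. Of the 12 none was higher in Ezh2cKO within both numbers and 7 were lower within both, beside 25.2% and 25.6% of all genes. Insig2, the second retention protein, had 676 and 667 in WT and 611 and 604 in Ezh2cKO (log2 difference -0.14, SE 0.20), and was the only one with both knockout arrays below both WT arrays, 1 of 12, which is near the share of all genes (8.39%).

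Other genes of the fatty acid pathway leaned the same way as the enzymes of both branches. Of 27 such genes 21 were measured, with a median log2 difference of 0.11, and none passed limma's adjusted threshold or reached an unadjusted p under 0.05. Of the 21, 7 lay higher on both Ezh2cKO arrays and 0 lower, beside 8.52% and 8.39% of all genes. These were Me1, Acss2, Acsl3, Elovl1, Hsd17b12, Mlxipl and Mlx. Me1, the malic enzyme that supplies NADPH, had 471 and 417 in WT and 615 and 581 in Ezh2cKO (log2 difference 0.42, SE 0.22). Elovl1, an elongase of very long chains, had 1602 and 1826 in WT and 2059.8 and 2169 in Ezh2cKO (0.30, SE 0.17). Mlxipl, the glucose-responsive activator of lipid synthesis, had the largest difference of the list (0.94, SE 0.48) at low signals of 60.2 and 73.0 in WT and 184 and 109 in Ezh2cKO.

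**Figure D4:**
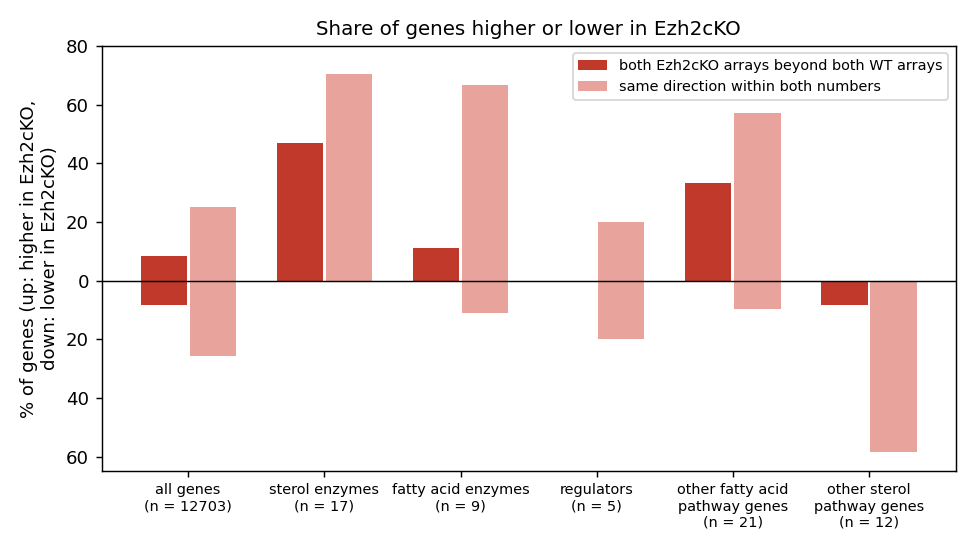
Percentage of genes with both Ezh2cKO arrays beyond both WT arrays (dark) and with the same direction within both replicate numbers (light), upward for higher and downward for lower in Ezh2cKO. Sterol enzymes reach 47.1% and 70.6% upward, where all genes reach 8.52% and 25.2%, while the other sterol pathway genes have no upward bar.

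**Figure D5:**
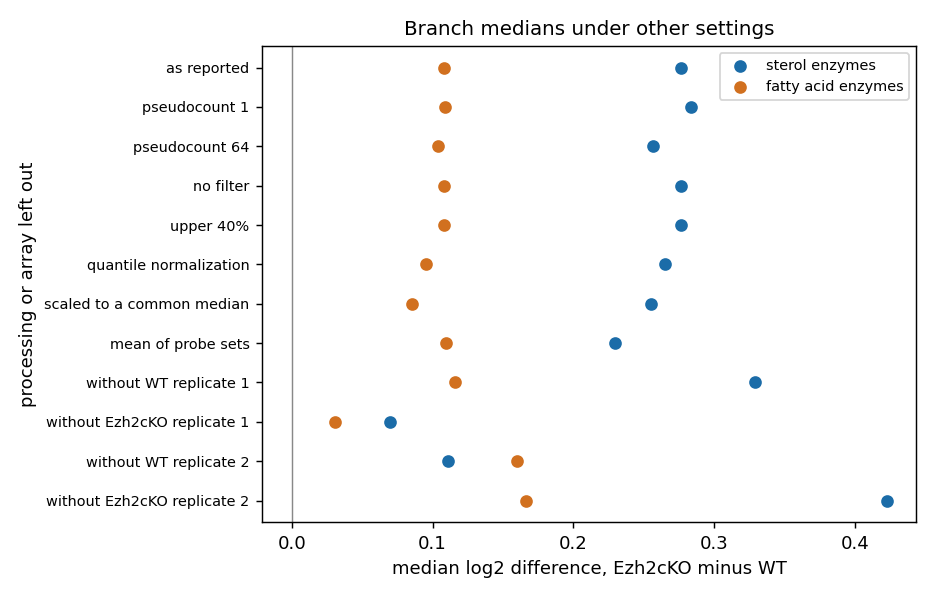
Median log2 difference of the 17 sterol enzymes (blue) and the 9 fatty acid enzymes (orange) as reported, under other processing and with 1 array left out. The processing alternatives keep the sterol median between 0.23 and 0.28, while leaving out single arrays spreads it from 0.07 to 0.42.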

How the data were processed

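The authors deposited MAS5 signal intensity values on a linear scale, 1 for each probe set on each array. MAS5 is named in the submitters' processing notes, with no version. The trimmed mean was 500.0 on each array, and this scaling was kept. Whether a signal was above background is not known, since no detection calls were used. Left out were 64 control probe sets. Of the other 45037, 34945 had 1 symbol in the platform annotation, 932 several and 9160 none listed, and 34741 were matched by identifier to RefSeq (GRCm38.p6). The values analysed were log2(signal + 16) of the 27022 probe sets in the upper 60% by mean signal, and the brightest of a gene stands for it.

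Differences between genotypes come from limma (version 3.58.1, R 4.3.3; lmFit, then eBayes with an intensity trend and no block), with Benjamini-Hochberg adjustment over the 27022 and a threshold of 0.05. The fit was tested on simulated data with far larger differences than those of the members and with no effect of the replicate number. That test does not cover differences of the size seen here. Each group holds n = 2 arrays. The members, branches and lists were chosen with earlier results of these data known. Fully described are members whose groups do not overlap, and Srebf1, Srebf2, Insig1, Hmgcs1, Sqle, Fasn, Scd1, Scd2, Acaca and Acly by role. The values of other members, and of Lbr, Me1, Elovl1 and Mlxipl, were picked from those measured. Some genes of the pathway lists are not analysed here. Settings varied one at a time were the pseudocount (1 or 64), the filter (none, or the upper 40%), the normalization (quantile, or a common median), averaging over probe sets, blocking on the replicate number, dropping the trend, and omitting each array.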

Additional observations from a re-analysis of the deposited data

How the results depend on the processing

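No member passed limma's adjusted threshold under any setting run, the replicate block included (0 of 31). The replicate numbers do not pair the arrays by their labels. The differences between replicate 2 and replicate 1 arrays correlated between the genotypes over all kept probe sets (r = 0.77), and with the replicate block the lowest adjusted limma p of a member was 0.700766. Ezh2, which did not pass in the fit as reported (adjusted p = 0.999979), passed with the replicate block (log2 -1.88, adjusted p = 0.0440) and with any array but Ezh2cKO replicate 1 left out (-2.36 to -1.82), and without Ezh2cKO replicate 1 it did not (-1.395, adjusted p = 0.999995). A fit with 1 array left out assumes that the lone array varies like the others. Leaving out arrays gave sterol medians of 0.07 to 0.42, regulator medians of 0.045 to 0.16, fatty acid medians of 0.031 to 0.17, and branch differences of -0.049 (without WT replicate 2) to 0.26. The branch difference was 0.12 with the mean of probe sets. Members higher on both Ezh2cKO arrays numbered 1 with a common median, 11 with quantile normalization and 13 to 23 with an array left out. Members lower numbered 1 with quantile normalization (Acly, beside 9.68% of all genes) and 1 to 7 with an array left out (beside 25.2% to 35.8%). The median of all genes stayed between -0.03 and 0.03 in every setting.

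The members named next changed sign under some setting. Not all of them lay near 0 as reported: Fdft1 was at 0.29, Insig1 at 0.24 and Nsdhl at 0.23. Under quantile normalization Hmgcs1 was at 0.0057, with a common median Ebp was at -0.015 and Fads2 at -0.0083, and with the mean of probe sets Hmgcs1 was at 0.10, Acly at 0.0075, Scd2 at -0.15 and Fads2 at -0.021. With single arrays left out, the log2 difference ran from -0.079 to 0.044 for Hmgcs1, -0.40 to 0.63 for Mvk, -0.16 to 0.54 for Fdps, -0.073 to 0.65 for Fdft1, -0.074 to 0.20 for Tm7sf2, -0.30 to 0.76 for Nsdhl, -0.23 to 0.24 for Ebp, -0.23 to 0.71 for Insig1, -0.32 to 0.16 for Srebf1, -0.12 to 0.35 for Srebf2, -0.30 to 0.37 for Scap, -0.33 to 0.0048 for Acly, -0.14 to 0.36 for Acaca, -0.13 to 0.41 for Fasn, -0.035 to 0.17 for Scd2, -0.074 to 0.16 for Fads1, -0.45 to 0.48 for Fads2 and -0.22 to 0.44 for Elovl5. The cause of these changes was not tested. The other 13 members kept their sign under every setting.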
